A study of Homo sapiens with 6 samples.

Results

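The genes described here were 10 acute-phase protein genes, listed by name with earlier results of these data known. Of these, 9 had a probe set among the 23752 named genes of the table. The level of SAA4 was not analysed here. SAA1 and ORM1 were singled out because their levels lay in opposite directions between the groups, so their differences are given as a description, with no test. The cells were SW480, an established line grown from a human colorectal adenocarcinoma, transiently transfected by liposomes. The 3 TUSC3 arrays came from cells given a pTarget plasmid that expresses TUSC3, a subunit of the oligosaccharyltransferase of the endoplasmic reticulum, and the 3 EV (empty vector) arrays from cells given pTarget without an insert. Both groups had therefore gone through plasmid transfection, and untransfected cells were not analysed here. The labels do not say whether replicates were separate cultures, so the p-values cover the scatter of these arrays alone, and that scatter may be technical. In bulk cells, a share of the cells changing much and all cells changing little cannot be told apart.

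Acute-phase proteins are plasma and secreted proteins whose amounts change during inflammation. The liver makes most of them when interleukin-6, interleukin-1 and tumour necrosis factor reach it, through the transcription factors STAT3, NF-kB and C/EBP, and epithelial cells, including those of the colon, make some of them at the site of inflammation. SAA1 and SAA2 encode serum amyloid A, a lipoprotein-bound protein that attracts leukocytes, and ORM1 and ORM2 encode orosomucoid, an acid glycoprotein that carries lipophilic molecules in plasma. CRP encodes C-reactive protein, which binds phosphocholine on microbes and dying cells, and HP encodes haptoglobin, which binds free haemoglobin. LCN2 encodes lipocalin, which withholds iron from bacteria by binding their siderophores, and SERPINA1 and SERPINA3 encode the inhibitors of neutrophil elastase and of cathepsin G.

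All values are log2 levels from RMA, which corrects background, equalises the arrays and summarises the probes of a probe set. Each difference is the TUSC3 mean minus the EV mean. TUSC3 itself read 13.13, 13.11 and 13.09 in the TUSC3 arrays, against 4.57, 4.33 and 4.63 in the EV arrays, which matches the labels. Colorectal epithelial markers were present, with 10 of 12 above 4.76, the 95th percentile of the olfactory receptor genes, which most cells keep silent, with EPCAM at 12.39 in TUSC3 and 12.44 in EV arrays among them. KRT20 and LGR5, the other two, lay under it. Of 15 measured hepatocyte markers 3 lay above it (TTR, APOC3 and ASGR1), and ALB, which encodes albumin, read 3.18 in TUSC3 and 3.13 in EV arrays.

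RefSeq promoter sequence (GRCh38.p14, 250 bases before to 50 after the gene start) was matched for 6 of the 10 genes. SAA1, SAA2, ORM2 and HP had no match, so the SAA1 promoter could not be set beside that of ORM1. The 3 shown differ in how the groups were placed. All TUSC3 arrays lay below the EV arrays for ORM1 and above them for LCN2, and the groups overlapped for SERPINA3. Each is printed 5′ to 3′ on the strand of the gene, from chr9:114322848-114323147 (+) for ORM1, chr9:128149203-128149502 (+) for LCN2 and chr14:94612141-94612440 (+) for SERPINA3. Capitals mark every match to the 5 motifs searched on both strands.
ORM1: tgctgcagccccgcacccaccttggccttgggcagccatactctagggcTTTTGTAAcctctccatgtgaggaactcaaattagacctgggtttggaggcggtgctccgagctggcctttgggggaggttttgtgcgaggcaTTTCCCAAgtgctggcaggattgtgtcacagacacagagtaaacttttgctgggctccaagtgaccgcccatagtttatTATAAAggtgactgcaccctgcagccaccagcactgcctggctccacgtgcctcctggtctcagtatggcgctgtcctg
LCN2: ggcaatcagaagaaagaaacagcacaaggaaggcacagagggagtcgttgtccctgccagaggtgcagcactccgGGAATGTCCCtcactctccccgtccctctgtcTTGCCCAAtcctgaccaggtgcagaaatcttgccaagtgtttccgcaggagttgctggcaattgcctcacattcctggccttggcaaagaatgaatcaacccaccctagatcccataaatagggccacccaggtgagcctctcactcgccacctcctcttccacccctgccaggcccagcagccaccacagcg
SERPINA3: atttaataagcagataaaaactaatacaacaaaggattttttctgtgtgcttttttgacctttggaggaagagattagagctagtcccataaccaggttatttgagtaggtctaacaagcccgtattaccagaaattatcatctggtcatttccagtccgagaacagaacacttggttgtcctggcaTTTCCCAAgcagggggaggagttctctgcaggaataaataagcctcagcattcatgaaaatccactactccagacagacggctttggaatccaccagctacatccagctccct
The motifs searched were the C/EBP motif TTNNGNAA, the interleukin-6 element CTGGGAA, the STAT motif TTCNNNGAA, TATAAA and the kappa-B consensus. Among 35116 promoter windows of this length, 36.8% held the C/EBP motif, 10.8% the interleukin-6 element, 7.66% the STAT motif, 11.5% TATAAA and 5.91% the kappa-B consensus. ORM1 held C/EBP matches at -201 and -108 from its start and TATAAA at -29. CRP, which is not shown, also held C/EBP matches, at -137 and -112, and TATAAA at -29. SAA4, not shown either, held C/EBP matches. For SERPINA1, also not shown, the window chr14:94388553-94388852 held a C/EBP match at -202. Its other window, chr14:94390586-94390885, held no match. LCN2 held a kappa-B match at -175 and a C/EBP match at -143. SERPINA3 held 1 C/EBP match, at -63, and its letters, TTTCCCAA, are the same as those of the ORM1 match at -108. The matches did not overlap each other in these 3 windows, and they are a description of the letters only.

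The 9 genes fell into those with a clear signal and those near the low end of the arrays. No detection call was used here, so 354 olfactory receptor genes, which few cells outside the nose express, served as a silent comparison. Their median level was 3.07 and their 95th percentile 4.76. SERPINA1, SAA1, LCN2 and SAA2, 4 of the 9, lay above that percentile, with means over the 6 arrays of 11.57, 10.08, 8.32 and 7.88. SERPINA3, CRP, ORM1, HP and ORM2, the other 5, lay at or below it, at 4.16, 4.11, 3.65, 3.07 and 2.69. Of all named genes 41.7% lay at or below it. Probe sets differ in how brightly they bind, so these levels place each gene against silent genes and do not rank transcript amounts between genes. SAA1 and ORM1, the pair with opposite differences, were thus on different sides of this line.

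**Figure D1:**
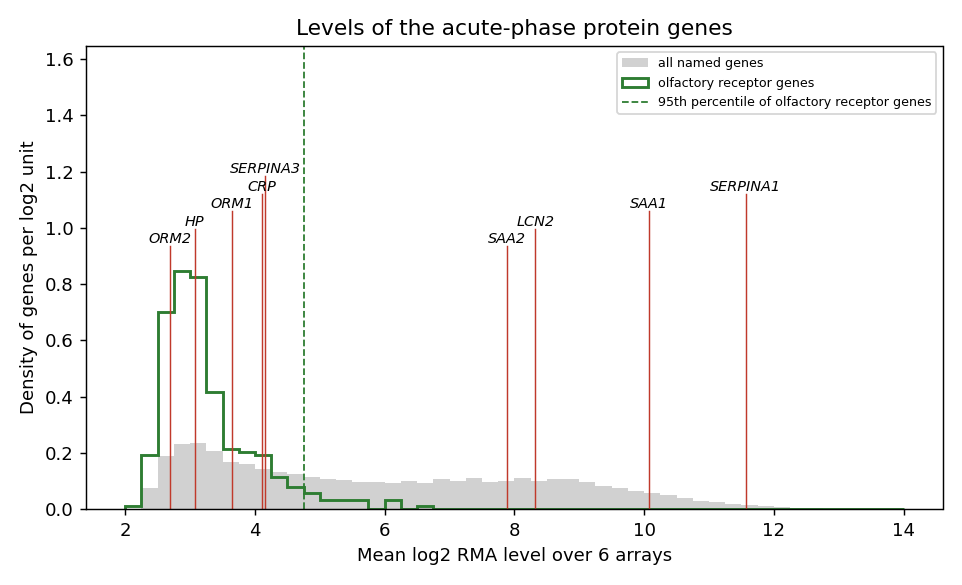
The horizontal axis is the mean log2 RMA level over 6 arrays and the vertical axis the density of genes, with all named genes in grey, 354 olfactory receptor genes as the green outline and their 95th percentile, 4.76, dashed. Red lines mark the 9 acute-phase protein genes, of which 4 stand to the right of the dashed line and 5, ORM1 among them, to its left.

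SAA1 read 10.30, 10.26 and 10.35 in the TUSC3 arrays, against 9.96, 9.86 and 9.76 in the EV arrays. Every TUSC3 array lay above every EV array, with a gap of 0.30 between the nearest arrays. The mean was 10.30 ± 0.044 in TUSC3 and 9.86 ± 0.097 in EV (SD, n = 3 each), a difference of 0.45 (SE 0.075, 95% interval 0.27 to 0.62). As a ratio of array signals this was 1.36 with an interval of 1.20 to 1.54.

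SAA2, a close paralogue of SAA1 and also an inducible serum amyloid A gene, read 7.90, 8.33 and 8.16 in the TUSC3 arrays, against 7.64, 7.67 and 7.59 in the EV arrays. The groups did not overlap here either, and the TUSC3 arrays were more spread (SD 0.22) than the EV arrays (SD 0.036). The difference was 0.50, SE 0.11, with an interval of 0.23 to 0.77, and it did not pass the threshold of 0.05 over all genes (limma, adjusted p = 0.731). The probe sequences were not used here, so signal from SAA1 message on the SAA2 probe set, or the reverse, cannot be told apart from signal of the gene itself. SAA3P, the serum amyloid A pseudogene, lay at the low end of the arrays, at 2.49 in TUSC3 and 2.45 in EV arrays.

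LCN2 had the same direction as the SAA genes. It read 8.55, 8.65 and 8.33 in the TUSC3 arrays, against 8.19, 8.18 and 8.04 in the EV arrays. The groups did not overlap, and the nearest arrays, TUSC3 replicate 3 and EV replicate 1, were 0.14 apart. The difference was 0.37, SE 0.10, with an interval of 0.13 to 0.61 (limma, adjusted p = 0.731), which did not pass. Among the TUSC3 arrays the order of the replicates differed between the 3 genes: SAA1 was highest in replicate 3, where LCN2 was lowest, and SAA2 and LCN2 were highest in replicate 2, where SAA1 was lowest. In the EV arrays all 3 genes were lowest in replicate 3.

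ORM1 read 3.195, 3.328 and 3.294 in the TUSC3 arrays, against 4.002, 4.055 and 4.017 in the EV arrays. It was the member whose TUSC3 arrays all lay below the EV arrays, with a gap of 0.67. The mean was 3.27 ± 0.069 in TUSC3 and 4.02 ± 0.027 in EV (SD, n = 3 each), a difference of -0.75 (SE 0.067, 95% interval -0.91 to -0.59), or a signal ratio of 0.594. All 6 values lay under 4.76, the 95th percentile of the olfactory receptor genes, so message and background signal were not told apart.

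ORM2, the adjacent paralogue of ORM1, did not separate the groups. It read 2.47, 2.59 and 2.93 in the TUSC3 arrays, against 2.93, 2.63 and 2.58 in the EV arrays. The difference was -0.05 with an interval of -0.40 to 0.29 (limma, adjusted p = 0.963). The difference between the paralogues was not tested, because ORM1 was chosen by this contrast. ORM2 averaged 2.69 over all arrays, below the olfactory receptor median of 3.07, so its message and background signal were not told apart. Signal from ORM1 message on the ORM2 probe set, or the reverse, could not be told apart, because probe sequences were not used here. The spread within groups differed, with a residual SD of 0.052 for ORM1 and 0.22 for ORM2, at percentiles 10.5 and 85.1 of all named genes.

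**Figure D2:**
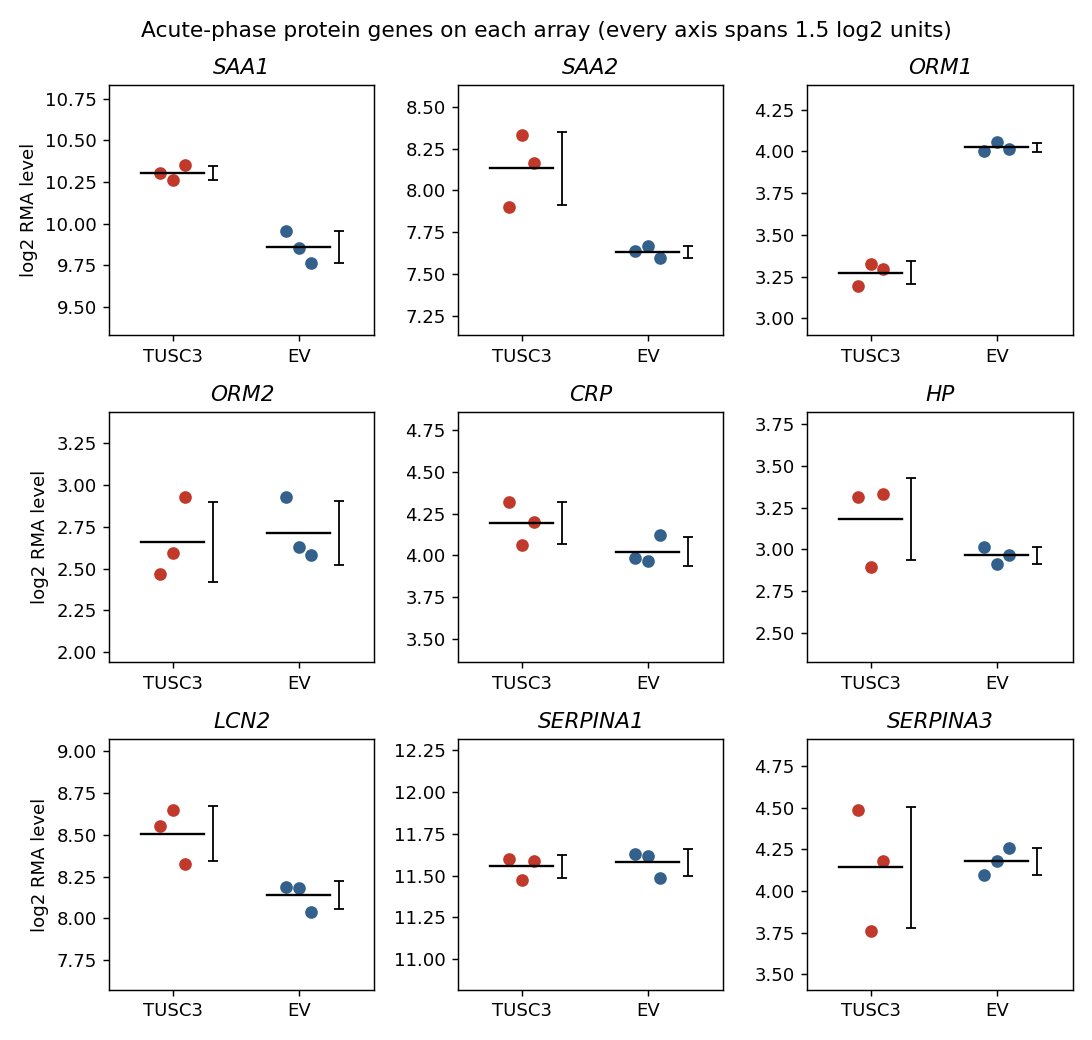
Each panel plots the log2 RMA level of 1 gene on the vertical axis for the 3 TUSC3 arrays (red) and the 3 EV arrays (blue), with the mean as a line and the SD as a bar beside the points; every axis spans 1.5 log2 units. SAA1, SAA2 and LCN2 have all TUSC3 points above the EV points, ORM1 has all of them below, and the other 5 genes overlap.

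SERPINA1, the elastase inhibitor, did not separate the groups, and its signal was far above the silent range. It read 11.60, 11.47 and 11.59 in the TUSC3 arrays, against 11.63, 11.62 and 11.48 in the EV arrays. The arrays overlapped, and the difference of -0.02 had an interval of -0.20 to 0.15 (limma, adjusted p = 0.968). The interval leaves room for a signal ratio between 0.870 and 1.11.

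SERPINA3, the cathepsin G inhibitor, read 4.48, 3.76 and 4.18 in the TUSC3 arrays, against 4.09, 4.18 and 4.26 in the EV arrays. The TUSC3 arrays stood on both sides of the EV arrays, with an SD of 0.36 in TUSC3 and 0.081 in EV. The difference was -0.04 with an interval of -0.44 to 0.37 (limma, adjusted p = 0.979), so a change of either sign up to a signal ratio of 0.736 or 1.29 lies within the error.

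CRP and HP, 2 further genes at the low end of the arrays, were on the higher side without separating. CRP read 4.32, 4.06 and 4.20 in the TUSC3 arrays, against 3.98, 3.96 and 4.12 in the EV arrays, a difference of 0.17 whose interval ran from -0.04 to 0.38 (limma, adjusted p = 0.773). HP read 3.31, 2.90 and 3.33 in the TUSC3 arrays, against 3.01, 2.91 and 2.97 in the EV arrays. TUSC3 replicate 2 was the lowest of the 6 HP values while the other two TUSC3 arrays were the highest, and the difference of 0.22 had an interval of -0.08 to 0.51 (limma, adjusted p = 0.787). HPR, the haptoglobin-related neighbour of HP, read 3.32 in TUSC3 and 3.36 in EV arrays on average.

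**Figure D3:**
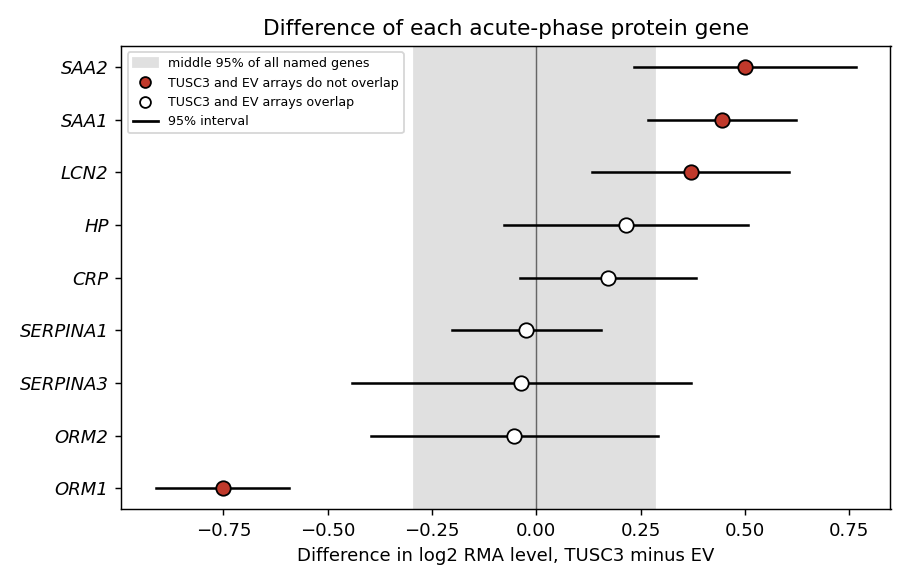
The horizontal axis is the difference in log2 RMA level, TUSC3 minus EV, with 95% intervals from the fit over all genes, and the grey band is the middle 95% of all named genes, -0.29 to 0.29. The points of SAA2, SAA1 and LCN2 lie to the right of the band, that of ORM1 to its left, and those of the other 5 genes inside it.

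Across the members, 5 of the 9 genes were higher and 4 lower, with a median difference of 0.17 beside 0.00126 over all named genes. With single arrays left out, the median ranged from 0.11 without TUSC3 replicate 1 to 0.24 without TUSC3 replicate 2. None of the 9 passed the threshold (0 in limma over all genes, 4 at an unadjusted p under 0.05), where 0.00421% of all named genes passed, TUSC3 alone, and 6.71% had an unadjusted p under 0.05. With a trended and robust variance prior the count was 1, SAA1, which is no test of that gene because this contrast chose it. The groups did not overlap for 3 genes on the higher side, where 6.17% of all genes were so placed, and for 1 on the lower side, where 6.08% were. Nothing is read from these counts or the median. The same contrast chose SAA1 and ORM1, and all members were listed with earlier results of these data known. By size of difference ORM1 stood at place 28, SAA2 at 146, SAA1 at 244 and LCN2 at 495 among the 23752 genes, and SERPINA1 at 19800. With 3 arrays in each group, the smallest p an exact two-sided permutation test can reach is 0.1.

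No signal that induces acute-phase genes, and no receptor for one, passed the threshold. Of 21 measured cytokines and receptors 15 were higher and 6 lower, 0 passed in either direction, and the median difference was 0.02. IL6, the main inducer in liver, read 4.24, 4.64 and 4.24 in the TUSC3 arrays, against 4.17, 4.21 and 4.40 in the EV arrays, within the range of the silent genes. IL6R, its receptor, averaged 6.81 in TUSC3 and 6.66 in EV arrays, and IL6ST, the shared signalling receptor gp130, averaged 10.17 in TUSC3 and 10.14 in EV arrays. The 2 with the smallest p were OSM, which encodes oncostatin M, a cytokine of the interleukin-6 family, at -0.27, and IL1A at -0.27, and both were within the range of the silent genes (limma, adjusted p = 0.740 and 0.756).

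Of 20 measured kinases and transcription factors of the response 8 were higher and 12 lower, 0 passed, and the median difference was -0.01. RELB and NFKB2, partners in the non-canonical NF-kB pathway, had the smallest p. RELB read 6.68, 6.88 and 6.56 in the TUSC3 arrays, against 6.38, 6.46 and 6.41 in the EV arrays, a difference of 0.29 (limma, adjusted p = 0.731). NFKB2 differed by 0.20 (limma, adjusted p = 0.741), again with no overlap. NFKBIA and SOCS3, named here after their values were seen, differed by 0.20 without overlap and 0.22 with overlap (limma, adjusted p = 0.741 and 0.756). NFKB1 and NFKBIZ of the same list, also named after their values were seen, differed by -0.03 and -0.01 with overlap. The groups did not overlap for 3 of the 20 on the higher side and 1 on the lower side. Of all named genes 6.17% and 6.08% were so placed. RELA, the main activating NF-kB subunit, differed by 0.04, CEBPB and CEBPD, which bind acute-phase promoters, by -0.01 and 0.03, and STAT3 by -0.12 with all TUSC3 arrays below the EV arrays.

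Among 25 measured positive acute-phase proteins outside the 9 genes, 13 were higher and 12 lower, 0 passed, and the median difference was 0.0031. A2M, the broad protease inhibitor macroglobulin, differed by 0.22 and ITIH3, a hyaluronan-binding protein, by 0.27, both from levels within the range of the silent genes (limma, adjusted p = 0.741 and 0.782). Of 12 measured negative acute-phase proteins, those that fall in plasma during inflammation, 8 were higher and 4 lower, with 0 passing. APOA2, an apolipoprotein of high-density lipoprotein, read 5.08, 4.85 and 5.30 in the TUSC3 arrays, against 5.35, 5.59 and 5.45 in the EV arrays, a difference of -0.38 without overlap (limma, adjusted p = 0.731). AHSG, which encodes fetuin, differed by 0.19, while ALB and TTR, the albumin and transthyretin genes, differed by 0.04 and 0.05. The levels of AHSG and ALB lay within the range of the silent genes.

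Of 23 measured paralogues and cluster neighbours 11 were higher and 12 lower, 0 passed, and the differences ran from -0.27 to 0.14. LCN15, another lipocalin gene, differed by -0.19 and SERPINA10, the inhibitor of activated coagulation factors, by -0.27 (limma, adjusted p = 0.741 and 0.762). The level of SERPINA10 lay within the silent range. Of 21 measured receptors, ligands and target proteases of the 9 proteins 10 were higher and 11 lower, with 0 passing. FCGR2A, an immunoglobulin receptor that also binds C-reactive protein, differed by 0.35 from a level within the silent range, and KLK3, a protease that SERPINA3 inhibits, by 0.42 (limma, adjusted p = 0.731 for both).

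Genes that epithelial cells induce with interleukin-1, interleukin-17 and interleukin-22, the setting in which LCN2 is known in the colon, numbered 26 measured, 10 higher and 16 lower, with 0 passing and a median difference of -0.04. TNFAIP3, a feedback inhibitor of NF-kB, read 6.13, 6.01 and 6.02 in the TUSC3 arrays, against 5.71, 5.51 and 5.67 in the EV arrays, a difference of 0.42 without overlap (limma, adjusted p = 0.731). DMBT1, a mucosal scavenger glycoprotein, differed by -0.34 from a level within the silent range. CXCL1, a neutrophil chemokine named here after its values were seen, had the largest difference of the list, 0.84, with a mean level of 3.91 within the silent range. It read 4.231, 4.997 and 3.753 in the TUSC3 arrays, against 4.321, 3.626 and 2.513 in the EV arrays, so the groups overlapped and EV replicate 3 stood lowest. The interval ran from -0.30 to 1.99.

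**Figure D4:**
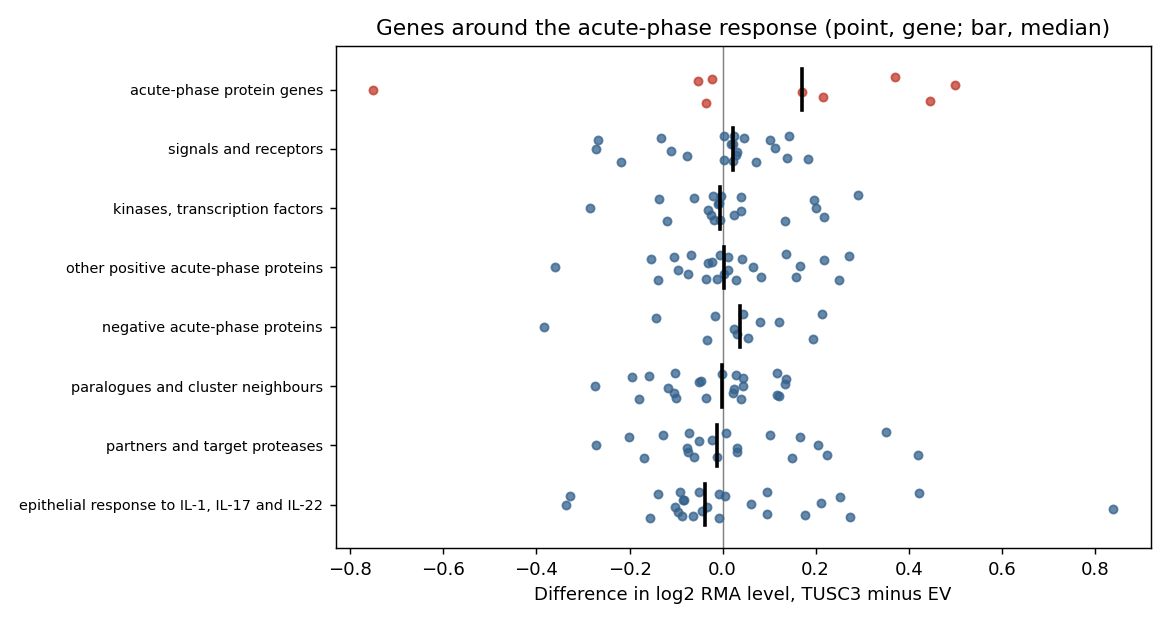
Each point is the difference in log2 RMA level, TUSC3 minus EV, of 1 gene, with the acute-phase protein genes in red, 7 surrounding gene lists in blue and list medians as black bars. The medians of the 7 lists lie between -0.04 and 0.04, the acute-phase protein genes have a median of 0.17, and the point at 0.84 is CXCL1. Nothing is read from these medians, because the genes and lists were chosen with earlier results of these data known.

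Markers of other cell types gave 0 calls in each list. Of 8 fibroblast markers 3 were higher and 5 lower, and their sum on the linear scale ranged from 214 to 232 in TUSC3 arrays and from 234 to 260 in EV arrays. The 3 above the silent range were THY1, which differed by -0.33, COL1A1, at 6.42 in TUSC3 and 6.51 in EV arrays, and COL1A2, which differed by 0.04. The part of this in the differences of the acute-phase genes was not tested. Among the 12 neutrophil and macrophage markers PTPRC, the common leukocyte marker, read 2.66 in TUSC3 and 2.55 in EV arrays. LYZ, CD68, ELANE and CSF1R, 4 of the 12, lay above the silent range. Their means over the 6 arrays were 7.14, 6.53, 5.55 and 5.50. The groups did not overlap for 2 of the 12 on the higher side and 0 on the lower side. Of all named genes 6.17% and 6.08% were so placed. The sums of the 12 markers, 398 to 425 in TUSC3 and 403 to 420 in EV arrays, overlapped. The sums of the hepatocyte markers overlapped too, at 258 to 265 in TUSC3 and 243 to 268 in EV arrays, with APOB at 3.78 in TUSC3 and 3.70 in EV arrays. Of the 15 hepatocyte markers 9 were higher and 6 lower, and the groups did not overlap for 2 on the higher side and 1 on the lower side. That lower gene was TAT, an amino acid catabolic enzyme named here after its values were seen, with a difference of -0.32 from levels within the silent range (limma, adjusted p = 0.731).

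The genes whose profile over the 6 arrays was most like that of SAA1 were PRLH, KRTAP5-3 and LINC03033, with root mean square differences of 0.052, 0.055 and 0.059 after each gene was centred on its own mean, out of 23751 genes compared. PRLH, which encodes prolactin-releasing hormone, read 5.39, 5.32 and 5.31 in the TUSC3 arrays, against 5.04, 4.94 and 4.90 in the EV arrays. For ORM1 they were ZC3H12D, SEC14L6 and MIR377, at 0.13, 0.15 and 0.15. ZC3H12D, which encodes a zinc finger protein of the family of the ribonuclease Regnase, read 4.30, 4.43 and 4.58 in the TUSC3 arrays, against 4.95, 4.97 and 5.01 in the EV arrays. These distances are a description over the same 6 arrays that showed the SAA1 and ORM1 differences.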

How the data were processed

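The submitters' processing notes name RMA, and the deposited values are log2 expression levels for 3 TUSC3 and 3 EV arrays. The sources used here give no RMA version, array model or probe set definition. Precision is limited by the number of arrays. RMA equalises the arrays, so a shift common to most genes would not be seen. Of 25088 probe sets, 23752 had exactly 1 gene symbol in the platform annotation, 0 had several and 1336 had none. No gene had more than 1 probe set, and no filter was applied.

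Groups and replicate numbers came from the sample titles. The model was fitted over all named genes (limma 3.58.1, R 4.3.3, lmFit and eBayes, two-sided), with Benjamini-Hochberg adjustment and a threshold of 0.05, and the procedure was tested on simulated data. The members and lists were chosen with earlier results of these data known. From each of the 7 lists around the response the 2 genes with the smallest p were named, with a few regulators and paralogues fixed by name. From the 4 marker lists, genes fixed by name and those whose level went against their list were named. Alternatives were a second quantile normalization, equal medians, no dim probe sets (lowest 30%), a trended and robust prior, array weights, the replicate block, and each array left out. Same-numbered replicates were not treated as pairs, because the labels state no pairing. Their deviations from the group means correlated at -0.014, 0.043 and -0.011, and differently numbered arrays were not compared.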

Additional observations from a re-analysis of the deposited data

How the results depend on the processing

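SAA1, SAA2, CRP and LCN2 kept their direction in all 12 alternatives, with differences of 0.40 to 0.49, 0.40 to 0.62, 0.11 to 0.24 and 0.30 to 0.46. ORM1 (-0.78 to -0.71) and HP (0.14 to 0.36) kept theirs in 11, since removing the dimmest 30% of probe sets dropped ORM1, ORM2 and HP. The trended and robust variance prior gave 2 genes past the threshold in place of 1, and 1 member, SAA1, in place of 0; the cause was not tested, and the call is no test of SAA1, which this contrast chose. Both counts were the same in the other alternatives, 0 genes of the surrounding lists passed in any, and over all 25088 probe sets 1 passed. With the replicate block 1 gene and 0 members passed. Differences that changed sign were ones near 0 that passed in no alternative. Without 1 array, ORM2 ranged from -0.19 to 0.057, SERPINA1 from -0.071 to 0.016 and SERPINA3 from -0.21 to 0.15. The median difference of the members ranged from 0.11 without TUSC3 replicate 1 to 0.24 without TUSC3 replicate 2, and was 0.27 over the 6 members left without the dimmest probe sets. Levels near those of silent genes limit ORM1, ORM2, HP, CRP and SERPINA3.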
